A study of Danio rerio with 4 samples.

Results

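A set of 9 genes of the cardiac sarcomere was followed through 4 RNA-seq libraries of adult zebrafish heart. The set was named as 10 genes: the myosin heavy chains myh6, myh7 and myh7l, the myosin light chains myl7 and cmlc1, the troponins tnnt2a, tnni1b and tnnc1a, the tropomyosin tpm4a and the actin actc1a. They were chosen by name and matched by symbol to the 32520 Ensembl gene IDs of the count tables, and 9 of the 10 were matched. All 9 were among the 16509 genes tested, which had a level of at least 1 CPM (counts per 1000000, scaled with TMM factors) in at least 1 library. The symbol myh7l was carried by no ID and is not analysed here under that name.

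The fish were of the Ekkwill strain. Hearts came from wild-type fish (LEN+/+) or from fish homozygous for a deletion of LEN, the regeneration enhancer linked to leptin b, here called LEN mutants. Hearts of each genotype were taken uninjured or 3 days post-amputation (3 dpa), which gave 4 groups of 1 library each. The number of hearts in a library, the age of the fish and the part of the heart amputated are not given in the labels. No group had a replicate, and the values below carry no p-value and were not set against variation between hearts.

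The sarcomere is the contractile unit of striated muscle. Myosin heavy chains form the motor of the thick filament and carry an essential and a regulatory light chain, while actin forms the thin filament. Tropomyosin lies along the actin and, with the calcium sensor troponin C, the inhibitor troponin I and the tropomyosin-binding troponin T, makes contraction depend on calcium. In zebrafish myh6 is the atrial myosin heavy chain and myh7 a ventricular one, while myl7 and cmlc1 are used in both chambers.

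The libraries held 31618442 counts (wild type, uninjured), 31898971 (mutant, uninjured), 35026983 (wild type, 3 dpa) and 34757291 (mutant, 3 dpa). The uninjured wild-type library stood apart in its liver genes: apoa1b, fabp10a, hpxa and apoa2 had 8972, 3748, 2131 and 5504 counts there and no more than 12 counts in each of the others. All 14 IDs of the hepatocyte list together took 0.178% of that library and 0.05 to 0.079% of the others. Scaling factors computed without these genes and without the mitochondrial genes gave the same member calls, with median member log2 ratios of -0.85 for injury in wild type and -0.97 in LEN mutants. The 9 sarcomere genes took 7.08% of all counts in the uninjured wild-type library and 7.39% in the uninjured mutant library. At 3 dpa they took 4.10% in both genotypes.

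The matching left some identities open. The name table gives many zebrafish genes in the spelling of their human counterparts, and those spellings are kept here: MYH7 (ENSDARG00000079782) stands for myh7, MYL7 (ENSDARG00000019096) for myl7, TNNT2 (ENSDARG00000020610) for tnnt2a and TNNI1 (ENSDARG00000052708) for tnni1b. In the RefSeq gene list of assembly GRCz12tu myh7 and myh7l lie on 1 chromosome with 1 other gene start between them. The table does not tell which of these copies its MYH7 is. TNNT2 and TNNI1 are each carried by 2 IDs, and the ID with more counts was taken. The other TNNT2 ID had 16 to 28 counts in a library and the other TNNI1 ID 1 to 4. How reads that fit several genes were counted is not given in the sources used here, so counts of near-identical copies are uncertain.

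All 9 genes were lower at 3 dpa than in uninjured hearts, in both genotypes. Their median log2 ratio was -0.84 in wild type and -0.97 in LEN mutants, against 0.03 and 0.04 over all tested genes. A gene was called when its level differed at least 2-fold and the exact 95% counting interval of the ratio excluded equal abundance. In wild type 2 of the 9 were called lower, MYH7 and cmlc1, where 6.76% of all tested genes were called lower. In LEN mutants 4 of the 9 were called lower, MYH7, cmlc1, MYL7 and actc1a, where 5.62% of all tested genes were. None was called higher in either genotype, where 13.2% and 14.7% of tested genes were. In both directions together 20.0% of tested genes were called in wild type and 20.3% in LEN mutants. The counting intervals are narrow and describe these libraries only. In bulk tissue, fewer cardiomyocytes and less RNA per cardiomyocyte cannot be told apart.

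**Figure D1:**
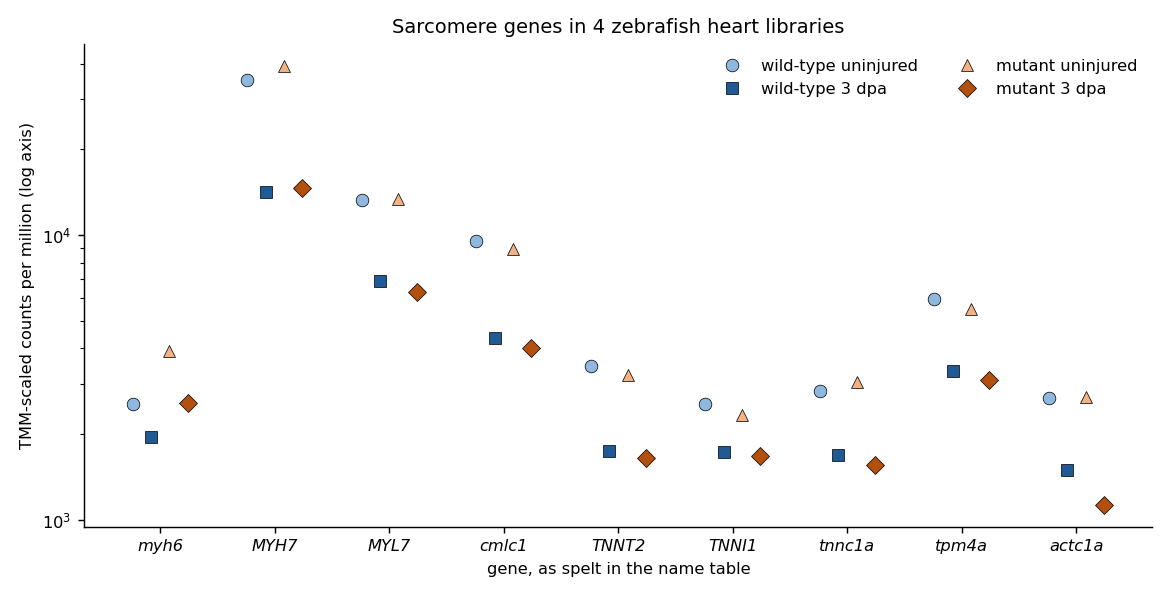
Scaled CPM (log axis) of the 9 matched genes in the 4 libraries, 1 point per library; levels are not corrected for transcript length, so heights compare libraries within a gene. For each gene the 3 dpa point of a genotype lies below its uninjured point, as for MYH7 at 14230 against 35030 in wild type.

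The largest difference with injury among the 9 was that of MYH7, which encodes a slow, ventricular-type myosin heavy chain. It had 1007701 counts in the uninjured wild-type library, 1126152 in the uninjured mutant library, 545486 in wild type at 3 dpa and 568784 in LEN mutants at 3 dpa. The 2 uninjured libraries were high and the 2 libraries at 3 dpa low, with no overlap. The 2 libraries of a state differ in genotype and are not replicates. The share of all tested genes that separate in this way was not computed, for MYH7 or for the genes below, so lack of overlap is a description only. After scaling it was 2.46-fold lower at 3 dpa in wild type (log2 -1.30, 95% interval from counting -1.30 to -1.30) and 2.68-fold lower in LEN mutants (-1.42, -1.43 to -1.42). Of all tested genes, 3.73% had a lower injury ratio than MYH7 in wild type and 1.58% in LEN mutants.

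The atrial myosin heavy chain myh6 (ENSDARG00000090637) differed least with injury in wild type. It had 73311 and 111921 counts before injury (wild type and LEN mutant, in that order) and 74654 and 99775 at 3 dpa. In CPM the order was mutant uninjured (3905), mutant 3 dpa (2568), wild-type uninjured (2549) and wild-type 3 dpa (1947). The middle pair had nearly equal levels, and unlike MYH7 the injury groups overlapped under TMM. This overlap depended on the scaling. Under size factors and under upper-quartile factors the mutant 3 dpa level lay below the wild-type uninjured one, and the groups did not overlap. Its injury log2 ratio was -0.39 in wild type (-0.40 to -0.37) and -0.60 in LEN mutants (-0.62 to -0.59), short of the 2-fold threshold in both.

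Both light chains had lower levels at 3 dpa. MYL7, the regulatory light chain known from zebrafish as cmlc2, had 381036 and 382933 counts in uninjured hearts of wild type and LEN mutants and 265076 and 245739 at 3 dpa. Its log2 ratio of -0.94 in wild type (-0.95 to -0.93) lay just outside the threshold and that of -1.08 in LEN mutants (-1.09 to -1.07) just inside it. The essential light chain cmlc1 (ENSDARG00000032976) had 274182 and 255215 counts in uninjured hearts and 167057 and 155910 at 3 dpa. It was called lower in both genotypes, with log2 ratios of -1.13 (-1.14 to -1.12) and -1.15 (-1.16 to -1.14). Scaled by the total count these were -0.86 and -0.83, and that of MYL7 in LEN mutants -0.76, so that the calls of both light chains were lost. For both light chains the uninjured libraries lay above the 3 dpa libraries without overlap.

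The troponin genes TNNT2 and TNNI1 did not keep the same proportion to each other. TNNT2, whose zebrafish gene tnnt2a is the one lost in the silent heart mutant, had 99996 and 92322 counts in uninjured hearts and 67137 and 64221 at 3 dpa. Its log2 ratios of -0.99 in wild type (-1.004 to -0.975) and -0.96 in LEN mutants (-0.98 to -0.95) were just outside the threshold. TNNI1, the inhibitory subunit, had 73198 and 67045 counts in uninjured hearts and 66627 and 64874 at 3 dpa, with smaller log2 ratios of -0.55 (-0.57 to -0.54) and -0.49 (-0.50 to -0.47). Within a library, and so independent of scaling, TNNT2 took 57.7% of the summed TNNT2 and TNNI1 counts in the uninjured wild-type library and 57.9% in the LEN mutant one. At 3 dpa it took 50.2% and 49.8%. The TNNT2 to TNNI1 ratio was thus lower with injury by a log2 difference of -0.44 in wild type (-0.46 to -0.42) and -0.48 in LEN mutants (-0.50 to -0.45). This ratio leaves out the troponin I gene tnni4a. It held 32.8% of troponin I counts in both uninjured libraries, and 25.5% and 22.9% at 3 dpa. The ratio is therefore not that of all troponin T to all troponin I.

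Troponin C was represented by tnnc1a (ENSDARG00000011400), the cardiac calcium sensor. It had 81398 and 87556 counts in uninjured hearts of wild type and LEN mutants and 64735 and 60582 at 3 dpa. Its log2 ratio was -0.75 in wild type (-0.76 to -0.73) and -0.97 in LEN mutants (-0.99 to -0.96), with no overlap between uninjured and injured libraries. A second troponin C ID, TNNC1 (ENSDARG00000037539), had 15251 and 14123 counts uninjured and 14862 and 17137 at 3 dpa. Its share of the 2 IDs' counts went from 15.8% to 18.7% in wild type and from 13.9% to 22.1% in LEN mutants.

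The thin filament genes tpm4a and actc1a completed the set. The tropomyosin tpm4a (ENSDARG00000023963) had 171697 and 157899 counts in uninjured hearts and 127530 and 120005 at 3 dpa. Its log2 ratios were nearly equal in the genotypes, at -0.84 (-0.85 to -0.83) in wild type and -0.83 (-0.85 to -0.82) in LEN mutants. The cardiac actin actc1a (ENSDARG00000042535) had 76789 and 77519 counts in uninjured hearts and 57602 and 43870 at 3 dpa. It had the widest gap between the genotypes: the log2 ratio was -0.83 in wild type (-0.85 to -0.81) and -1.26 in LEN mutants (-1.28 to -1.24), a difference of -0.43 (-0.45 to -0.41). The call in LEN mutants was lost under the total count, at -0.95.

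**Figure D2:**
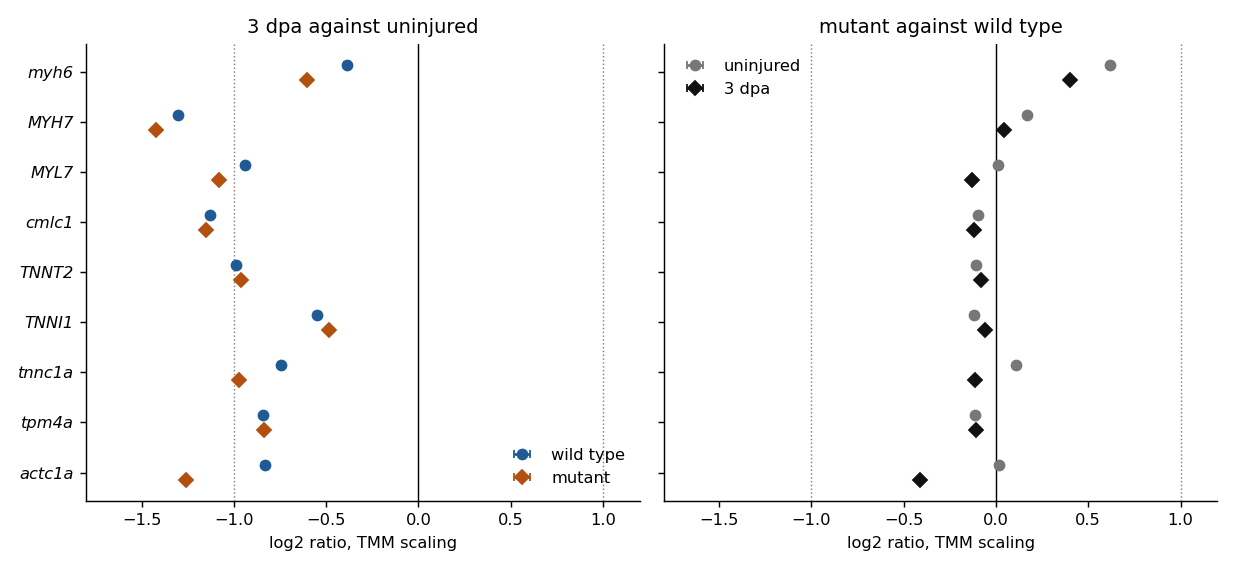
Log2 ratios of the 9 genes under TMM scaling, at left 3 dpa against uninjured in each genotype and at right mutant against wild type in each state; bars are 95% counting intervals, mostly narrower than the points, and dotted lines mark a 2-fold difference. All injury ratios lie below 0, with MYH7 lowest at -1.30 and -1.42, and no genotype ratio reaches the 2-fold line.

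The 9 genes were set against other genes of the sarcomere, its Z-disc and its assembly. Of 54 matched IDs of that list, 41 were tested. In wild type 11 were called lower and 2 higher at 3 dpa, and in LEN mutants 19 were called lower and 3 higher. Of all tested genes 6.76% were called lower and 13.2% higher in wild type, and 5.62% and 14.7% in LEN mutants. The list's median log2 ratio was -0.74 in wild type and -0.93 in LEN mutants, beside -0.84 and -0.97 for the 9 members. The cardiac myosin binding protein gene MYBPC3 (ENSDARG00000011615) had log2 ratios of -1.03 (-1.04 to -1.01) and -1.17 (-1.18 to -1.16). The 2 IDs of the giant spring protein titin, TTN, had -0.91 and -0.84 in wild type and -1.21 and -1.30 in LEN mutants.

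Falls were ranked among called genes of this list with at least 10 CPM in a library. The largest in wild type were those of the actin actc1c (-1.71), the Z-disc gene ldb3b (-1.60) and LMOD2 (ENSDARG00000045634, -1.59), an actin filament elongation factor. In LEN mutants they were those of ldb3b (-1.69), the M-band gene MYOM1 (ENSDARG00000104836, -1.499) and the cardiac myosin light chain kinase MYLK3 (-1.45). The called rises in both genotypes were those of ANKRD1, a stress-induced titin-binding gene, and of tpm3, a tropomyosin also used outside muscle. ANKRD1 (ENSDARG00000075263) had 19 counts uninjured and 571 at 3 dpa in wild type, and 39 and 1084 in LEN mutants. The third rise in LEN mutants was that of TMOD4, a pointed-end cap of actin filaments, with a log2 ratio of 1.09 (0.97 to 1.21) beside 0.70 (0.61 to 0.81) in wild type.

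**Figure D3:**
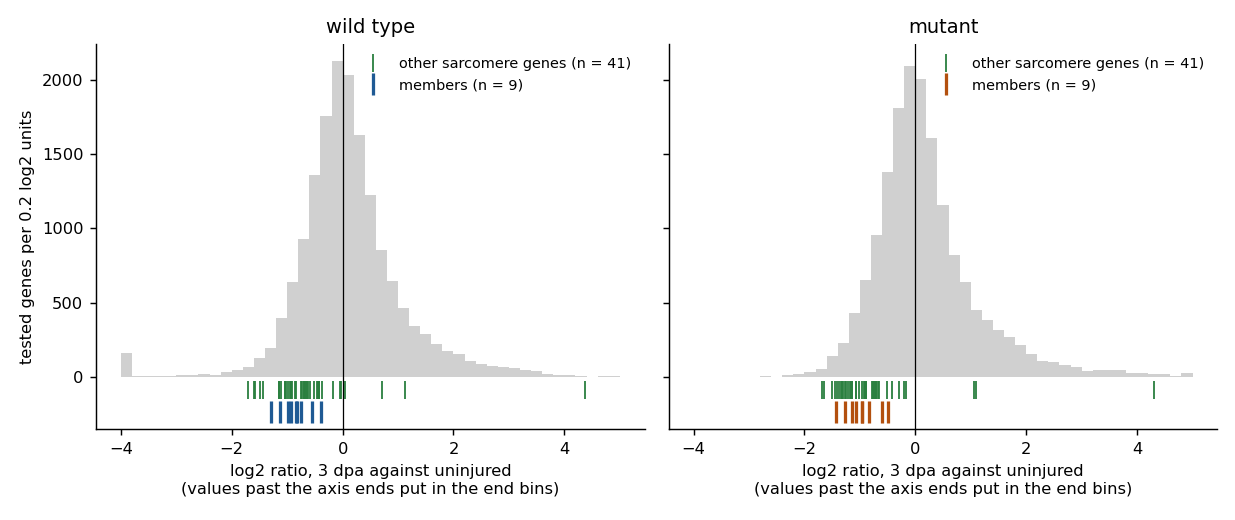
Histograms of the log2 ratio of 3 dpa against uninjured over all 16509 tested genes (grey, with values past the axis ends in the end bins), with ticks below for the 41 other sarcomere genes (green) and the 9 members (blue or orange). The members' ticks run from -1.30 to -0.39 in wild type and from -1.42 to -0.49 in LEN mutants, to the left of the medians of all genes at 0.03 and 0.04.

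Markers of leukocytes, of epicardium and fibroblasts and of erythroid cells had higher summed levels at 3 dpa, and those of endocardium and endothelium lower ones. Over all tested genes 13.2% were called higher with injury in wild type and 14.7% in LEN mutants. Of 9 tested leukocyte markers 7 were called higher in each genotype, and the list's summed level was 269 and 272 CPM in uninjured hearts and 603 and 641 CPM at 3 dpa. Of 8 epicardium and fibroblast markers 7 were called higher in wild type and 6 in LEN mutants, with sums of 1372 and 1123 CPM uninjured and 8193 and 6610 CPM at 3 dpa. Of 5 erythroid markers 2 and 3 were called higher, with sums of 4335 and 2903 CPM uninjured and 9012 and 6897 CPM at 3 dpa. Of 6 endocardium and endothelium markers none was called in either genotype, where 20.0% and 20.3% of all tested genes were. The list's median log2 ratios were -0.47 and -0.39, with sums of 975.6 and 1125 CPM uninjured and 744 and 804 CPM at 3 dpa. None of the markers in these 4 lists was at 0 in all libraries. The mitochondrially encoded genes, which cardiomyocytes express strongly, had median log2 ratios of -0.78 and -0.81 over 13 genes. The part of these cells in the lower sarcomere levels was not tested.

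The balance of atrial and ventricular myosin was read within each library, where the scaling cancels. The counts are not corrected for transcript length, so the ratio is used only to compare libraries. In bulk tissue, the amounts of atrial and ventricular tissue in a library and the expression within each chamber cannot be told apart. Of the summed myh6 and MYH7 counts, myh6 took 6.78% (exact 95% interval, 6.73 to 6.83%) in the uninjured wild-type library and 12.04% (11.96 to 12.12%) in the wild-type 3 dpa library. In LEN mutants it took 9.04% (8.99 to 9.09%) uninjured and 14.92% (14.84 to 15.01%) at 3 dpa. The share was thus higher at 3 dpa in both genotypes and higher in LEN mutants in both states. On the log2 scale the myh6 to MYH7 ratio was higher with injury by 0.91 in wild type (0.90 to 0.93) and by 0.82 in LEN mutants (0.81 to 0.83). Between the genotypes it was higher in LEN mutants by 0.45 (0.44 to 0.46) before injury and by 0.36 (0.34 to 0.37) at 3 dpa.

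Each heavy chain was also set against the summed counts of the other 7 members. The log2 ratio of myh6 to that sum was higher at 3 dpa by 0.53 in wild type and by 0.40 in LEN mutants. That of MYH7 changed by -0.38 and -0.42. Between the light chains the balance moved less: MYL7 took 58.2% of the summed MYL7 and cmlc1 counts in the uninjured wild-type library and 60.0 to 61.3% in the other 3.

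Counts of chamber regulators were set beside the myosins. The genes of this ratio were chosen after their values were seen, so it is a description and no independent support for the myosin ratio. NR2F1 and NR2F2, known from zebrafish and mouse as keepers of atrial identity, were set against HEY2, IRX1 and IRX4, known for roles in the ventricle. NR2F2 is also expressed in venous endothelium and HEY2 in arterial endothelium. The summed counts were 3054 against 1968 in the uninjured wild-type library, 3131 against 2243 in the uninjured mutant library, 2862 against 1280 in wild type at 3 dpa and 3331 against 1383 in LEN mutants at 3 dpa. In the uninjured wild-type library NR2F2 gave 1836 of the 3054 counts and IRX1 1512 of the 1968. NKX2-5 and HEY1, described below, were not part of the ratio. The atrial share was 60.8% and 58.3% in uninjured hearts and 69.1% and 70.7% at 3 dpa. With injury this ratio was higher in both genotypes, by 0.53 (0.40 to 0.65) and 0.79 (0.67 to 0.91) on the log2 scale.

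Between the genotypes the values were smaller. In uninjured hearts the regulators' atrial to ventricular ratio was lower in LEN mutants, by a log2 difference of -0.15 (-0.27 to -0.04). That is opposite in direction to the myosin ratio, which was higher by 0.45. At 3 dpa the interval of the regulators' difference included 0 (0.11, -0.02 to 0.24). The direction of this ratio is that of the chosen genes only. Of the 16 tested chamber regulators 14 had a genotype log2 ratio above 0 before injury, with a median of 0.13. Among them TBX5 (0.92), tbx5b (0.75), TBX20 (0.83) and gata4 (0.97) were not part of the ratio.

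**Figure D4:**
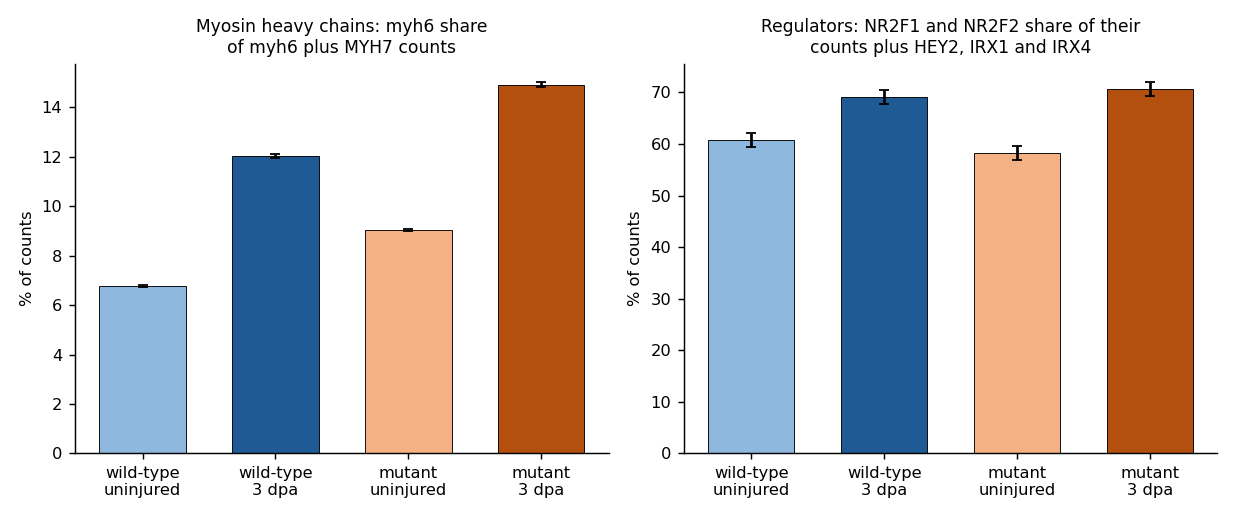
Atrial shares within each library, at left myh6 as a percentage of myh6 plus MYH7 counts and at right NR2F1 plus NR2F2 as a percentage of their counts plus those of HEY2, IRX1 and IRX4; bars are single libraries and error bars exact 95% binomial intervals. Both shares are higher at 3 dpa than uninjured in each genotype, from 6.78% to 12.04% and from 60.8% to 69.1% in wild type. Between the uninjured libraries they go opposite ways: in LEN mutants the myosin share is higher (9.04%) and the regulator share lower (58.3%). The regulators were chosen after their values were seen.

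Of the 16 tested chamber regulators, 2 were called lower with injury in wild type, where 6.76% of all tested genes were. In LEN mutants 3 of the 16 were called lower, where 5.62% of all tested genes were. None was called higher, where 13.2% and 14.7% of tested genes were. The list's median log2 ratios were -0.53 and -0.57. HEY2 and HEY1 were those called lower in wild type. HEY2 had 362 and 337 counts in uninjured hearts and 189 and 271 at 3 dpa. Its log2 ratios were -1.34 (-1.61 to -1.09) in wild type and -0.75 (-0.99 to -0.52) in LEN mutants. HEY1 had few counts, 56 and 58 in uninjured hearts and 36 and 69 at 3 dpa. Its log2 ratios were -1.01 (-1.70 to -0.42) and -0.18 (-0.71 to 0.34). IRX1 (ENSDARG00000101831) had -0.99 (-1.10 to -0.87) and -1.24 (-1.35 to -1.13), and IRX4, at 73 to 94 counts, had -0.74 and -0.77. NR2F1 had -0.35 (-0.47 to -0.24) and -0.14 (-0.25 to -0.03), and NR2F2 had -0.62 (-0.72 to -0.52) and -0.50 (-0.60 to -0.41), near the median of the list. The T-box genes TBX5 (ENSDARG00000024894) and tbx5b were called lower with injury in LEN mutants, at -1.05 and -1.35, beside -0.41 and -0.88 in wild type. Before injury both were higher in LEN mutants than in wild type, TBX5 at 126.6 against 66.8 CPM and tbx5b at 32.0 against 19.0 CPM. At 3 dpa they were still higher there, at 61.2 against 50.3 CPM and 12.5 against 10.3 CPM. NKX2-5, which maintains ventricular identity in zebrafish, had -0.83 and -0.87. The natriuretic peptide gene nppa, a cardiac stress marker, had 0.00 and 0.20.

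Sarcomere gene families showed how much of each family's counts the members held. Of 16 IDs named as muscle myosin heavy chains, 6 were tested. MYH7 took 89.9% of the family's counts in the uninjured wild-type library and 87.5% in the LEN mutant one, and 83.2% and 80.5% at 3 dpa. The share of myh6 was 6.54% and 8.70% uninjured and 11.4% and 14.1% at 3 dpa. A further ID, spelt MYH6 in capitals (ENSDARG00000079564), had 14935 and 12786 counts uninjured and 19233 and 15127 at 3 dpa. Its share went from 1.33% to 2.94% in wild type and from 0.994% to 2.14% in LEN mutants. The table does not say which zebrafish gene it is.

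Among troponin I genes TNNI1 shared the counts with tnni4a (ENSDARG00000099870). The share of TNNI1 was 67.2% and 67.1% in uninjured hearts and 74.5% and 77.1% at 3 dpa. By itself tnni4a was called lower in both genotypes, with log2 ratios of -1.06 (-1.09 to -1.04) and -1.21 (-1.23 to -1.18). TNNT2 took at least 99.6% of the troponin T counts in every library.

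Among the 5 tropomyosin IDs the share of tpm4a went from 91.2% to 85.1% in wild type and from 91.3% to 85.1% in LEN mutants. The share of tpm3 went from 2.55% to 9.25% and from 2.73% to 9.39%. It had 4790 and 4714 counts uninjured and 13865 and 13248 at 3 dpa, so its groups did not overlap.

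Of the 7 muscle actin IDs 4 held over 10% of the family in a library. The share of actc1a was 34.4% in the uninjured wild-type library, 31.9% in wild type at 3 dpa, 29.3% in the uninjured mutant library and 28.1% in LEN mutants at 3 dpa. ACTA1 (ENSDARG00000055618), spelt as a skeletal actin, held 25.6% uninjured and 32.8% at 3 dpa in wild type and 32.6% and 31.8% in LEN mutants, above actc1a in all libraries but the uninjured wild-type one. The share of actc1c went from 24.8% to 12.5% with injury in wild type and from 23.9% to 20.6% in LEN mutants. The second ACTA1 ID (ENSDARG00000036371) had 8258 counts uninjured and 18156 at 3 dpa in wild type, and 13019 and 11052 in LEN mutants. These actin genes encode nearly identical proteins, and how reads that fit several genes were counted is not given. Whether this affects the split of reads among them was not tested.

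**Figure D5:**
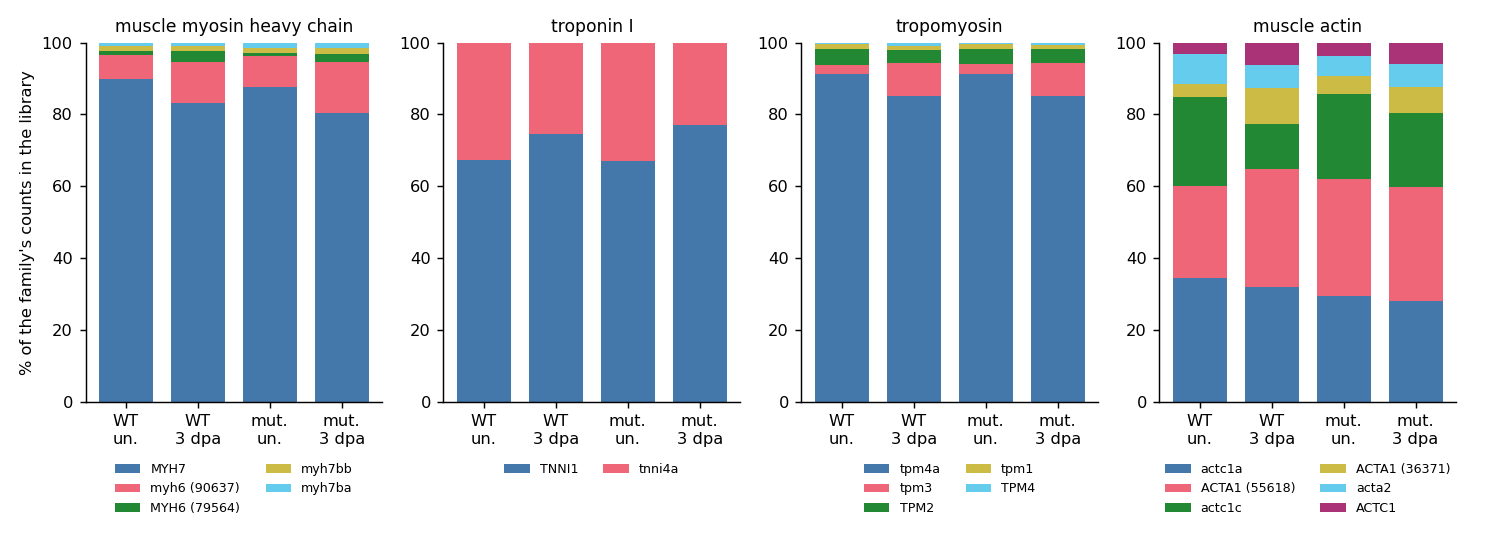
Share of each family's counts held by its genes in the 4 libraries (WT, wild type; mut., mutant; un., uninjured), for genes with at least 0.5% in 1 library; numbers in brackets are the last 5 digits of the ID where a symbol recurs. MYH7, tnni4a and tpm4a hold a smaller share at 3 dpa in both genotypes, as MYH7 at 83.2% against 89.9% in wild type.

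Between the genotypes no member was called, in uninjured hearts or at 3 dpa, where 8.01% and 3.00% of all tested genes were called. Of tested genes 3.92% were called higher and 4.09% lower in uninjured LEN mutants, and 2.24% higher and 0.769% lower at 3 dpa. The member with the highest ratio in both states was myh6. It was higher in LEN mutants by a log2 ratio of 0.62 (0.60 to 0.63) before injury and 0.40 (0.39 to 0.41) at 3 dpa, above 90.5% and 89.1% of tested genes. Of 6 tested sinoatrial and natriuretic peptide genes, 2 were called higher in LEN mutants in each state. The pacemaker channel gene HCN4 had 25 counts in wild type and 255 in LEN mutants before injury (log2 ratio 3.27, 2.76 to 4.01), and 12 and 80 at 3 dpa (2.51, 1.83 to 3.73). The peptide gene nppal had 75 and 908 before injury (3.57, 3.26 to 3.96), and 477 and 1018 at 3 dpa (1.07, 0.92 to 1.23). The list had 5 of 6 genes above 0 before injury and 6 of 6 at 3 dpa, and its summed level was 3742 and 3663 CPM before injury and 3757 and 4397 CPM at 3 dpa. Their part in the myh6 difference was not tested. MYH7 had 0.17 (0.16 to 0.17) and 0.04 (0.04 to 0.05). The other 7 members lay between -0.12 and 0.11 in uninjured hearts and between -0.41 and -0.06 at 3 dpa, the lowest being actc1a. The sign of MYL7 in uninjured hearts (0.01) turned under the total count.

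Of the 41 tested genes on the list of other sarcomere genes, 1 was called higher and 1 lower in uninjured LEN mutants, and 1 lower at 3 dpa. Of all tested genes 8.01% were called in uninjured hearts and 3.00% at 3 dpa. Among those of the list with at least 10 CPM, only obscnb was called. It encodes the giant sarcomere-linking protein obscurin. Its counts were 2170 in wild type and 5816 in LEN mutants when uninjured (log2 ratio 1.43, 1.36 to 1.499) and 1774 and 3134 at 3 dpa (0.80, 0.72 to 0.89). A MYOZ2 ID (ENSDARG00000012311), with at most 145 counts in a library, was called lower in LEN mutants in both states, at -1.01 and -1.23. The more abundant MYOZ2 ID (ENSDARG00000037266), with 6226 to 8882 counts in a library, went the other way. Its genotype log2 ratios were 0.26 and 0.21, and it was not called. The 2 TTN IDs had 0.56 and 0.61 in uninjured hearts and 0.25 and 0.15 at 3 dpa, and the Z-disc crosslinker actn2b had 0.57 and 0.15. The list's median was 0.26 in uninjured hearts and 0.08 at 3 dpa, beside 0.01 and -0.11 for the members. The list left out the muscle myosin heavy chain myh7ba (ENSDARG00000076075), which was called higher in LEN mutants before injury but not at 3 dpa. Its genotype log2 ratios were 1.03 (0.99 to 1.06) and 0.82 (0.77 to 0.86). Before injury its level was 348 CPM (wild type) and 711 CPM (LEN mutant). Of the 16 tested chamber regulators none was called before injury and only gata4 at 3 dpa, where 8.01% and 3.00% of all tested genes were. It was higher in LEN mutants, with log2 ratios of 0.97 uninjured and 1.03 (0.88 to 1.19) at 3 dpa.

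For the difference of the injury responses, mutant minus wild type, none of the 9 members was called, where 5.30% of tested genes were (3.88% higher and 1.42% lower). The differences ran from -0.43 for actc1a to 0.06 for TNNI1, with a median of -0.12. Those of tnnc1a and myh6 were -0.22 (-0.25 to -0.20) and -0.22 (-0.24 to -0.20). The interval of tpm4a included 0 (0.01, -0.01 to 0.02). Under the total count it did not (0.06, 0.04 to 0.07), and the difference of cmlc1 turned from -0.02 to 0.03. Among the 41 other sarcomere genes 1 was called, the Z-disc gene ldb3a, with -1.07 (-1.11 to -1.03) and injury ratios of -0.17 in wild type and -1.24 in LEN mutants. Each of these values uses all 4 libraries, and the injury and genotype comparisons share libraries with each other.

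The genes whose pattern over the 4 libraries came nearest to each heavy chain were named by the distance between centred log2 CPM, among 1695 genes with at least 100 CPM in a library. Nearest to myh6 were PHKA2 (distance 0.08 log2 units), SPEN, MINK1, npdc1b and ASH1L, none of them on the chamber or sarcomere lists. Nearest to MYH7 were nmrk2 (distance 0.07), prx, GPR22, atp2a2a and nnt2. Of these, atp2a2a encodes a calcium pump of the sarcoplasmic reticulum and had 7292 and 8078 CPM uninjured and 3184 and 3083 CPM at 3 dpa. With 4 libraries such a likeness is a description only.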

How the data were processed

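The authors deposited raw read counts per Ensembl gene ID for each library. The submitters' processing notes name HISAT2, featureCounts and the genome build GRCz11. Per the file headers the counts derive from first reads of lane 8. Annotation release, strand setting and treatment of multi-mapping reads are not given in the sources used here. The name table gave symbols for 29201 of the 32520 IDs.

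Libraries were scaled with TMM in edgeR 4.0.16 (R 4.3.3). Log2 CPM followed edgeR's formula with a prior count of 2. Ratios carry exact conditional binomial (Clopper-Pearson) 95% intervals, and differences of ratios delta-method intervals. Intervals cover counting error only and have no term for variation between hearts. Reads are not independent molecules, so the intervals can be too narrow even for counting error. Neither edgeR's nor DESeq2's models were fitted, because a group held 1 library. The code for ratios and intervals was checked on simulated counts that held counting error only, with the true scaling supplied. The intervals assume that same error, so the check covers neither variation between hearts nor the TMM factors. Other tools were Python 3.11.15, scipy 1.17.1, numpy 2.4.6, matplotlib 3.10.9 and pandas 2.3.3.

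Members and lists were chosen with earlier results of these data known. List genes were matched by symbol, case ignored, or without the copy letter. Named genes are the members and 6 chosen genes (NR2F1, HEY2, IRX4, NKX2-5, nppa, nppal). For 4 lists the 3 largest called rises and falls of at least 10 CPM per contrast were added, as were the 5 nearest patterns and the 4 liver genes. Family members, MYBPC3, TTN, actn2b, HCN4, NR2F2, HEY1, IRX1 beside HEY2, and the regulator ratio were chosen after their values were seen. Alternatives were other scalings, prior counts of 0.5 and 10, no filter and a 1.5-fold threshold.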

Additional observations from a re-analysis of the deposited data

Results flagged for a closer look

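With 1 library per group the genotypes pointed in opposite directions for some genes. None of these differences was tested against variation between hearts. The 2 actin genes ACTA1 (ENSDARG00000036371) and ACTC1 (ENSDARG00000057911) had higher levels at 3 dpa in wild type (log2 ratios 0.72 and 0.33) and lower levels in LEN mutants (-0.68 and -0.56), differences of -1.40 and -0.89. The skeletal myosin heavy chain myhb (ENSDARG00000001993) had injury log2 ratios of 0.26 in wild type and -1.53 in LEN mutants, a difference of -1.79. The slow skeletal myosin binding protein gene MYBPC1 (ENSDARG00000045560) had -0.45 and 0.95, a difference of 1.40. The natriuretic peptide gene nppal had 2.23 and -0.27, a difference of -2.50.

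Among the members, 3 genes had genotype ratios of opposite sign in uninjured hearts and at 3 dpa. MYL7 had 0.01 and -0.13, a difference of -0.14, and its first sign turned under the total count. The troponin C gene tnnc1a had 0.11 and -0.11, a difference of -0.22. The actin actc1a had 0.02 and -0.41, a difference of -0.43.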

How the results depend on the processing

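The direction of all 9 members with injury was the same in both genotypes under the 5 scalings tried, with log2 ratios from -1.41 to -0.12 in wild type and from -1.55 to -0.17 in LEN mutants. How many passed the 2-fold threshold depended on the scaling. Under the total count 1 member was called lower in wild type and 1 in LEN mutants, in place of 2 and 4: cmlc1 lost its call in both genotypes, and MYL7 and actc1a in LEN mutants. Under upper-quartile factors 4 were called lower in wild type, and 6 in LEN mutants under both upper-quartile and size factors. The calls over all tested genes rose too. Upper-quartile factors gave 1435 genes called lower in wild type and 1315 in LEN mutants, against 1116 and 927 under TMM. Size factors gave 1113 in LEN mutants. At a 1.5-fold threshold 7 and 8 were called lower with injury, and 1 member, myh6, higher in uninjured LEN mutants. The share of all tested genes called at 1.5-fold was not computed, so these counts have no background beside them. Under the total count the all-gene median with injury stood at 0.29 (wild type) and 0.35 (LEN mutants), and the members' medians lay -0.87 and -1.005 from it, against -0.87 and -1.01 under TMM. The total count raised the share of rises among all calls from 66.2% to 82.5% in wild type and from 72.3% to 90.6% in LEN mutants, with 649 and 359 falls in place of 1116 and 927. Upper-quartile factors lowered that of LEN mutants to 61.8%. With the ID spelt MYH6 in capitals added to MYH7, an alternative chosen after seeing the data, the log2 change of the myosin ratio with injury was 0.88 in wild type and 0.80 in LEN mutants. Prior counts of 0.5 and 10 and no filter changed no member's call. The myosin ratio with myh7l, and per coding base, was not run, because myh7l was not matched and no coding lengths were used here. No replicate could be left out. No paired analysis was possible because the groups share fewer than 2 replicate numbers and the results come from no test. A fit of additive terms for genotype and injury over the 4 libraries was not run.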

Other observations

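Of 23 tested smooth muscle and nonmuscle actin, myosin and partner genes, 3 were called higher and 6 lower with injury in wild type. In LEN mutants 1 was called higher and 3 lower. Of all tested genes 13.2% were called higher and 6.76% lower in wild type, and 14.7% and 5.62% in LEN mutants. The list's median log2 ratios were -0.47 and -0.56. The nonmuscle myosin heavy chain MYH9 (ENSDARG00000063295) had log2 ratios of 1.49 (1.38 to 1.62) and 1.83 (1.72 to 1.95). The cytoplasmic actin actb1 had 1.13 in wild type and 0.98 in LEN mutants, and the actin-binding gene TAGLN (ENSDARG00000033466) 1.03 and 0.76. The falls included elnb, an elastin of the outflow tract, at -1.83 and -1.06, and in wild type the smooth muscle actin acta2 at -1.11, with -0.94 in LEN mutants. The myosin light chain kinase MYLK (ENSDARG00000034801) had -1.02 and -0.44. The myosin myh14 was called lower in LEN mutants at -1.15, with -0.78 in wild type.

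Skeletal muscle genes were scarce apart from actins and genes the heart also uses. Of 31 matched IDs 14 were tested, and 3 of these were called lower with injury in wild type and 6 in LEN mutants. Of all tested genes 6.76% and 5.62% were called lower. The calcium-binding gene CASQ1 (ENSDARG00000018105) was called lower in both genotypes, at -1.22 and -1.20. The fast skeletal markers pvalb2, MYL1 and TNNT3 had 81 to 211, 65 to 130 and 36 to 97 counts in a library. Between the genotypes at 3 dpa 2 of the 14 were called lower and 1 higher, where 0.769% and 2.24% of all tested genes were. The list's median genotype log2 ratio was -0.33 in uninjured hearts, with 4 genes above 0. At 3 dpa it was -0.56, with 2 genes above 0. The myosin myhb, with 466 counts in wild type and 71 in LEN mutants at 3 dpa, had a genotype log2 ratio of -2.69 (-3.11 to -2.37) there. The actin actc1b had -1.78 (-2.23 to -1.43) at 3 dpa, and MYBPC1 had 1.14 (1.01 to 1.28).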
